A study of Mus musculus with 4 samples.

Results

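The transcription factor genes Spi1, Irf8, Runx1, Cbfb, Fli1, Ets2, Myb and Nfe2 were followed in peritoneal exudate cells of mice with and without C/EBPε. They were read from every probe set that the platform annotation assigns to exactly 1 gene symbol, that of one of these genes. This gave 10 probe sets for the 8 genes, out of 7542 singly named probe sets for 6137 genes. The study hybridised 4 one-colour Affymetrix arrays, 1 per genotype on each of 2 array types. The types, here called A and B, carry different probe sets, so the arrays of a genotype are not replicates and no difference below has a replicate check.

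Wild-type (+/+) and C/EBPε-deficient (-/-) mice were of a mixed 129/SvEv and NIH Black Swiss background and 6 to 8 weeks old. Per the labels, 4 mice of each genotype received 2 ml of 4% thioglycollate broth into the peritoneal cavity, a sterile irritant that draws in neutrophils and then monocytes. The cavity was lavaged 24 h later. By the labels' cytospin counts both genotypes gave about 30% monocytes, 60% neutrophils and 7 to 10% lymphocytes. The study looked for genes that C/EBPε might control in these phagocytes. The missing factor is absent from every cell of the deficient mice from birth, so marrow and exudate cells alike lacked it.

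These 8 genes encode DNA-binding regulators, and 1 partner protein, that set the blood cell lineages apart before C/EBPε acts late in granulocyte maturation. PU.1, encoded by Spi1, drives the macrophage and granulocyte programmes, and IRF8 pairs with it on composite sites and tilts progenitors towards monocytes. RUNX1 binds DNA with CBFβ as its partner and is needed for blood stem cells to form. FLI1 and ETS2 belong, as PU.1 does, to the ETS family, which recognises a GGAA core. MYB keeps progenitors dividing and is shut off as they mature. The p45 subunit of NF-E2, encoded by Nfe2, works with small Maf proteins in erythroid cells and megakaryocytes.

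The RefSeq promoter table held starts for 5 of the 8 genes: Irf8, Runx1, Cbfb, Ets2 and Myb. Promoters of the 3 that also gave a measured ratio are printed here, as the 250 bases before the first listed start on assembly GRCm38.p6, since the study asked which genes C/EBPε might control. Capitals mark every match to the motifs searched, on both strands.
Irf8, chr8:120736108-120736357, plus strand: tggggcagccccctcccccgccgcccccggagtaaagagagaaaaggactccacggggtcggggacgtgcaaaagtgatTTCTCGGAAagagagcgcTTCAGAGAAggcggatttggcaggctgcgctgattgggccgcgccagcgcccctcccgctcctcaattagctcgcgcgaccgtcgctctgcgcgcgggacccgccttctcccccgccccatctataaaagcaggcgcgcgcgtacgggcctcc
Cbfb, chr8:105170424-105170673, plus strand: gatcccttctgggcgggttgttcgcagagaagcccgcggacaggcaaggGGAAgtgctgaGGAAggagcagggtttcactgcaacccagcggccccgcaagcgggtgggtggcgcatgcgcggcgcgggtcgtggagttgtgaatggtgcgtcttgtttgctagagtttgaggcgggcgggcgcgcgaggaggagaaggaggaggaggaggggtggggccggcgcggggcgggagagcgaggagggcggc
Ets2, chr16:95702157-95702406, plus strand: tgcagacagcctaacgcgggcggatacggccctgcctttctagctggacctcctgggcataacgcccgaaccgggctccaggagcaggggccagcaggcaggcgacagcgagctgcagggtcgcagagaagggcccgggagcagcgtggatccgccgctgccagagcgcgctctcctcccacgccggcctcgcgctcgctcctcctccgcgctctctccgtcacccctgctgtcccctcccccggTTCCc
The motifs were TTGCNNAA for C/EBP, AGGAAGT and the core GGAA it contains for ETS, TGTGGT for RUNX, TAACNG for MYB, GAAANNGAA for IRF and TTCNNNGAA for the STAT site called GAS. The Irf8 window held TTCNNNGAA at 2 places, starting at -171 and -153 from the start site, and its single GGAA lay inside the first of them. The window of the other listed Irf8 start, not printed here, held GGAA at -242 and -147 but no TTCNNNGAA. Irf8 is a known interferon gamma target, and 7.02% of all 32851 promoter windows held this motif. The GAS and GGAA motifs were picked after the promoters were seen, so nothing is concluded from their matches. The Cbfb window held GGAA at 2 places, at -201 and -190, and the Ets2 window once, at -5, against 93.4% of all windows with at least 1 match. The C/EBP letters were in 9.56% of all windows and in none of the 7 windows of these 5 genes, which says only that those letters are not in these stretches. The same held for the longer ETS motif, the RUNX and the IRF motif, found in 7.69%, 14.0% and 7.13% of all windows. The MYB motif, in 19.8% of them, was matched once, in a window of Runx1 not printed here.

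Most of the 8 genes with a readable signal gave similar readings in both genotypes. Spi1, Irf8 and Cbfb read 1.11-fold to 1.12-fold higher in deficient cells. Ets2, Fli1 and Nfe2 read 1.08-fold, 1.24-fold and 1.35-fold lower. Scaling to the bacterial controls put Ets2 and Fli1 above 0, along with a shift of all measured probe sets on B by 0.33 log2 units, and relative to the median of B both stayed below 0. Runx1 was below the signal floor in both genotypes, and so was Myb on array type A. The floor is the median of the scaled intensities of both arrays of a type, 1036.5 on A and 690.1 on B. A ratio was formed only where both arrays were above it. An array above it alone gives a bound, written as at least N-fold, whose size depends on the floor. Of the 10 probe sets 6 had a ratio, 2 a bound and 2 neither, so 6 of the 8 genes had a ratio.

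**Figure D1:**
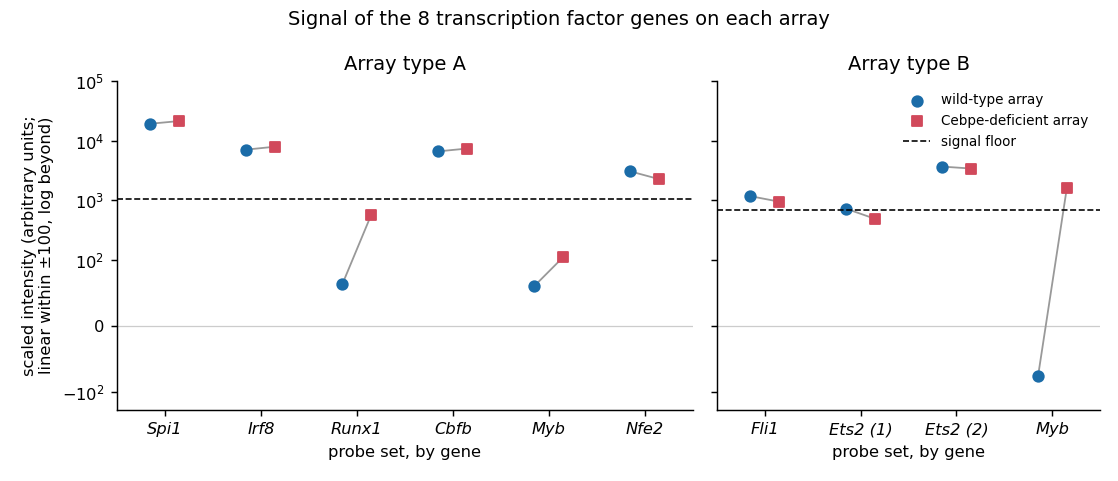
Scaled intensity of each probe set (arbitrary units, linear within 100 of 0 and logarithmic beyond) on the wild-type array (circles) and the Cebpe-deficient array (squares) of types A and B, 1 array each, with the signal floor dashed. Ets2 (1) and Ets2 (2) are the plain and the _g probe set. Spi1, Irf8, Cbfb and Nfe2 on A and Fli1 and Ets2 (2) on B lie above the floor on both arrays, and Myb on B goes from -76 to 1602.

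None of the 6 ratios reached 2-fold in either direction. On array type A this was 0 of 4, where 5.70% of 2949 probe sets with a ratio reached it, and on B 0 of 2, where 7.96% of 2953 did (6.83% of 5902 over both). A count of 0 among 6 is near that background. The median log2 ratio, deficient over wild-type, of the 6 was 0.02, and that of all 5902 was also 0.02. Measurement error of a single ratio was taken from repeat probe sets of the same gene on the same array type. Its SD was 0.36 log2 units at 3 times the floor or more (221 genes) and 0.43 below (75 genes). Repeat probe sets were read on the same arrays, so this SD leaves out differences between arrays that they share. It holds no spread between mice. An interval of 2 such SDs spans 1.64-fold and 1.81-fold either way, so smaller differences were not detectable here. Without replicate arrays, larger ones cannot be told from differences between hybridisations or mice.

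Among the ETS factors, Spi1 read 19165 on the wild-type array and 21283 on the deficient one, 18.5 and 20.5 times the floor. Both readings were far into the upper range of array type A, higher than 96.5% and 96.8% of its probe sets. The log2 ratio was 0.15, with an interval of 2 error SDs from -0.56 to 0.86, and 71.9% of the measured probe sets on A lay at least as far from 0. The message of PU.1 was detected in both exudates, and the gap between the arrays was smaller than 1 error SD.

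Fli1, which encodes an ETS factor of megakaryocyte and endothelial development, read 1166 in wild-type cells on array type B and 942 in deficient ones. Both values were close to the floor, at 1.69 and 1.37 times it. The log2 ratio was -0.31, with an interval from -1.16 to 0.55. Relative to the median of all measured probe sets on B it was -0.33, and -0.32 with scaling to the bacterial hybridisation controls. A floor at the 70th percentile left Fli1 with no ratio. Of the measured probe sets on B, 53.5% lay at least as far from 0.

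Ets2, an ETS factor that responds to MAP kinase signalling in macrophages, had 2 probe sets on B, made from the same sequence entry. The plain one read 716 and 485, just above the floor in wild-type cells and below it in deficient cells, which gives a log2 bound of only -0.05. The other, of the kind suffixed _g, read 3654 and 3390, with a log2 ratio of -0.11 and an interval from -0.82 to 0.61. Relative to the median on B this was -0.13, and -0.12 with bacterial-control scaling. Both probe sets had the lower reading in the deficient cells, by less than 1 error SD for the one with a ratio.

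Irf8 read 7044 in wild-type cells and 7897 in deficient ones, 6.80 and 7.62 times the floor. The log2 ratio was 0.16, with an interval from -0.55 to 0.88, the highest of the 6. Cbfb, the partner subunit that raises the DNA binding of RUNX proteins, read 6583 and 7346. Its log2 ratio was 0.16 as well, with an interval from -0.56 to 0.87. Of the measured probe sets on A, 69.9% and 70.6% lay at least as far from 0 as these genes. Under all 7 other scalings and floors Spi1, Irf8 and Cbfb stayed above 0, from 0.10 to 0.37. The other floors could not move ratios this bright, and leaving out scaling barely did. All these settings reuse the same arrays, so the kept sign is no check against measurement error.

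Runx1 itself was not detected above the floor, with readings of 63 and 563, so the RUNX1 and CBFβ pair can be compared only through Cbfb. The deficient reading was the higher, and no ratio is given. With the floor at the 30th percentile, 256 on A, Runx1 had a bound of at least 2.20-fold higher.

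Nfe2 read 3034 in wild-type cells and 2249 in deficient ones, 2.93 and 2.17 times the floor. Its log2 ratio of -0.43 was the farthest from 0 among the 6 and just past 1 error SD, with an interval from -1.29 to 0.42. At least as far from 0 lay 33.5% of the measured probe sets on A. It stayed below 0 under the other scalings and floors, from -0.44 to -0.23. A bound of -0.25 took the place of the ratio when the floor was at the 70th percentile. These settings too reuse the same arrays and do not test measurement error. Markers of several cell types are given beside the Nfe2 reading, and they did not all move the same way. Of 9 megakaryocyte and platelet markers none had a named probe set, so those cells could not be read. Among markers with a ratio, 3 of 4 of mast cells and basophils were below 0, and 2 of 3 of dendritic cells above. All 7 neutrophil markers with a ratio, of 10 listed, were below 0, from S100a8 at -0.08 to Il1r2 at -2.40. The labels give about 60% neutrophils in both genotypes. The summed scaled signal of the list went from 136449 to 105213 on A and from 49985 to 33256 on B. Camp was at or below the floor. Of 8 erythroid markers 3 had a ratio, Hba-a1 at 0.04, Slc4a1 at 0.35 and Hbb-b2 at -1.62, and Alas2 had a bound of at least 6.92-fold lower. The other probe sets of Hba-a1 and Slc4a1 stood at -0.46 and -0.06. The summed signal of the erythroid markers went from 4488 to 4295 on A, with Epor at or below the floor, and from 109213 to 73691 on B. On B most of that fall was in the 1 probe set of Hbb-b2, which went from 49272 to 16041. All 3 measured markers of resident peritoneal macrophages were below 0, their sum going from 15835 to 9232 on A and from 20313 to 7237 on B. So were 6 of 10 monocyte and macrophage markers, with 4 above 0, and the 4 mesothelial and fibroblast markers with a ratio. The monocyte and macrophage sum went from 120327 to 110120 on A and from 303879 to 250472 on B. The mesothelial and fibroblast sum went from 5871 to 4306 on A and from 19965 to 7411 on B. The part of these cell types in the Nfe2 reading was not tested. In such mixed cells fewer cells of a type and less RNA per cell cannot be told apart. Whether a marker itself depends on C/EBPε was not tested either.

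Myb was the 1 gene of the 8 past 2-fold at these settings, by a bound, and its probe sets did not show the same. On array type A it read 60 and 110, below the floor in both genotypes. On B it read -76 without the deletion and 1602 with it, a bound of at least 2.32-fold higher. Of the 385 probe sets on B above the floor in deficient cells only, 28.6% had a bound of 2-fold or more. The probe set is of the suffixed kind _r, for which the maker relaxed its rules of probe choice. A floor at the 70th percentile, 2044 on B, lay above both readings, and the bound was lost. At the 30th percentile, 35.0, the bound was 45.8-fold, a size set by the floor and not by a wild-type reading.

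Myeloid progenitor markers, the cells in which Myb is usually active, were low in both genotypes. Of 8 listed, 7 had a named probe set and 4 a ratio. On A only Elane was above the floor, at 1516 and 1638, with Ctsg, Flt3 and Prtn3 at or below it. On B the summed scaled signal went from 3960 to 4372 over 4 genes. That rise depended on Flt3, whose wild-type reading was below the floor. Without Flt3 the sum on B was lower in deficient cells. Kit and Cd34, stem and progenitor surface proteins, stood at log2 ratios of -0.57 and -0.16, and Mpo and Elane, granule enzymes of promyelocytes, at 0.36 and 0.11. Flt3, a cytokine receptor of progenitors, was above the floor only in deficient cells on B (252 and 993, a log2 bound of 0.53). Their part in the Myb reading was not tested.

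**Figure D2:**
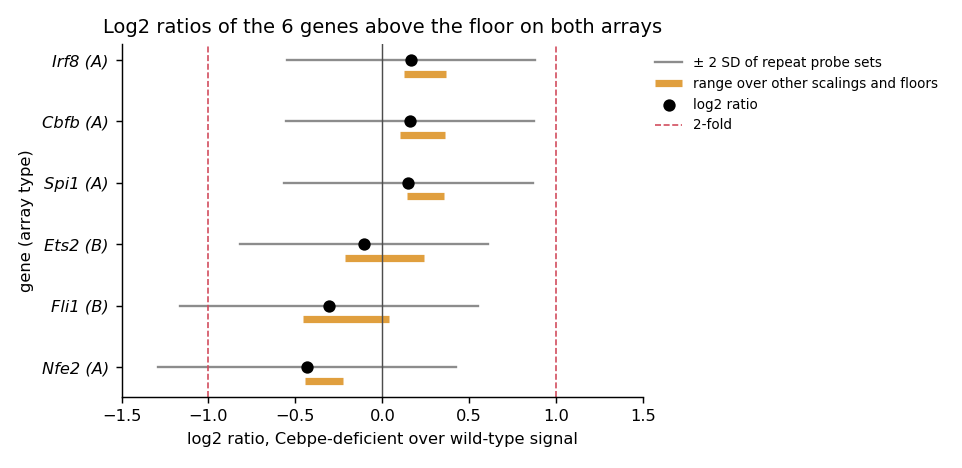
Log2 ratio of Cebpe-deficient over wild-type signal (points, 1 array per genotype) for the 6 genes above the floor on both arrays, with the array type in brackets. Grey lines are 2 SDs of repeat probe sets either way, orange bars the range over the other scalings and floors, and dashed lines 2-fold. All 6 grey lines cross 0, and the bars of Fli1 and Ets2 do too, by the scaling that shifts all of B.

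The genes around these factors were read from 12 lists of family members, partners and textbook targets, 183 genes without the 8. Of these, 128 had a named probe set and 82 a ratio. By ratio 3 were higher by 2-fold or more (3.66%, against 2.94% of all 3131 measured genes) and 5 lower (6.10%, against 3.64%). Another 20 had a bound only. Among them 4 were at least 2-fold higher (20%, against 10% of all 618 genes with a bound only) and 5 at least 2-fold lower (25%, against 9.06%). The median log2 ratio of the 82 was 0.12 and that of all measured genes 0.01. Where a gene had more than 1 measured probe set, the brightest stands for it.

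The 7 measured ETS family genes besides the 8 had a median of 0.14, with 5 above 0 and none past 2-fold. They ran from Spib, which encodes the PU.1 relative of B cells, at -0.41 to Elk1, a serum response partner, at 0.91. The median turned to -0.05 with the floor at the 70th percentile and to -0.12 without suffixed probe sets. Of 6 measured IRF family genes and partners, 3 were above 0 and 3 below (median 0.05), between Irf1, the interferon-induced activator, at -0.49 and Batf3 at 0.58. The other probe set of Batf3 stood at -0.23. Their median was below 0 at a floor of the 30th percentile (-0.11) and without suffixed probe sets (-0.23).

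The RUNX and CBF cofactors leaned higher in deficient cells, with 6 of 8 above 0 and a median of 0.42. Tle5, a short Groucho-related corepressor, was 2.80-fold higher at 1066 and 2988, the wild-type reading being near the floor. Cbfa2t2, Sin3a and Crebbp read 1063, 1063 and 1046 in wild-type cells, just above the floor of 1036.5 on A. At such readings a clearly lower deficient value would have left no ratio, so the lean rests partly on them. Prmt1, an arginine methyltransferase that modifies RUNX1, was at -0.94, and its other probe set at -1.10. A floor at the 70th percentile put the median at -0.22. The MYB relatives and cofactors leaned the other way, with 4 of 5 below 0 and a median of -0.24, from Pim1, a kinase that modifies MYB, at -0.77 to the coactivator gene Crebbp at 0.30. Mybl1 and Mybl2 were below the floor in both genotypes.

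Partners and relatives of NF-E2 had a median of 0.57, with 6 of 8 above 0. Bach1, a repressor that competes with NF-E2 for small Maf partners, was 2.07-fold higher at 2725 and 5641, and its other probe set had a bound of only 0.14. Nfe2l2, which encodes the oxidative stress factor NRF2, was at 0.98. Klf1, the erythroid Krüppel factor, was lowest at -0.43, and Gata1, Mafk and Tal1 were below the floor on both arrays. Without suffixed probe sets the median was 0.17.

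The 3 measured genes of the C/EBP and Trib list were Cebpa at -0.07, Cebpb at 0.25 and Cebpd at -0.37. No probe set of Cebpe itself was annotated on either array type, so its loss was not checked here. Of 17 measured myeloid fate regulators of other families 12 were above 0 (median 0.30). Id2, an inhibitor of E proteins, was 2.01-fold higher on B, while its probe set on A was below the floor in both genotypes. With equal medians the Id2 log2 ratio on B was 0.90, just under 2-fold. The lowest ratio was that of Egr1, an immediate early factor, at -0.37. By bound, Rxra and Mef2c were at least 5.07-fold and 2.09-fold higher, and Egr2 and Id1 at least 5.72-fold and 2.61-fold lower. Mef2c and Id1 each had a second probe set below the floor in both genotypes.

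The textbook targets of PU.1 split evenly, with 10 of 20 measured genes above 0 and 10 below (median -0.01). Mrc1, the mannose receptor, was lowest at -2.30 by the brightest probe sets, with Csf3r, the G-CSF receptor, at -1.31, Il1b at -1.11 and Cd14 at -1.03. The scavenger receptor gene Msr1 stood at -0.87, and its dimmer probe set, at 11796 and 3953, at -1.58. Csf1r, the macrophage growth factor receptor and best known PU.1 target, was the highest at 0.84. The sign of the median turned under 6 of 12 alternatives, within -0.28 to 0.20. Csf3r is also in the neutrophil marker list, and Mrc1, Cd14, Msr1 and Csf1r are in the monocyte and macrophage list.

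Textbook targets of IRF8 had 4 genes with a ratio, all above 0 (median 0.48), from Cst3 at 0.09 to Cybb, the catalytic subunit of the phagocyte oxidase, at 0.67. The other probe set of Cst3 stood at -0.75, and without suffixed probe sets this was the only gene left. Gbp2, an interferon-induced GTPase, was at least 3.31-fold lower. Targets of RUNX1 and CBFβ had 4 of 5 above 0 (median 0.15; -0.07 without suffixed probe sets), between Cebpa and Csf1r, and bounds of at least 2.68-fold higher for the integrin gene Itgal and 2.24-fold for Il3. This list shares Spi1 with the 8 genes.

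Textbook targets of MYB had 3 of 6 above 0 (median -0.02; 0.01 with quantile scaling and 0.25 with bacterial-control scaling), from Kit to Ccna1 at 0.58, with Bcl2 at least 2.10-fold lower by 1 of its probe sets. Of the targets of NF-E2, Hbb-b2, a beta-globin gene read by a probe set of the family kind, was 3.07-fold lower, Tbxas1, thromboxane synthase, stood at -0.47, and Alas2, which starts haem synthesis in erythroid cells, had a bound of at least 6.92-fold lower. These 3 were the only ones of 10 with a named probe set. Hbb-b2 and Alas2 are the same readings as in the erythroid marker list. There Hba-a1 stood at 0.04 and Slc4a1 at 0.35 by their brightest probe sets, and at -0.46 and -0.06 by their other ones.

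**Figure D3:**
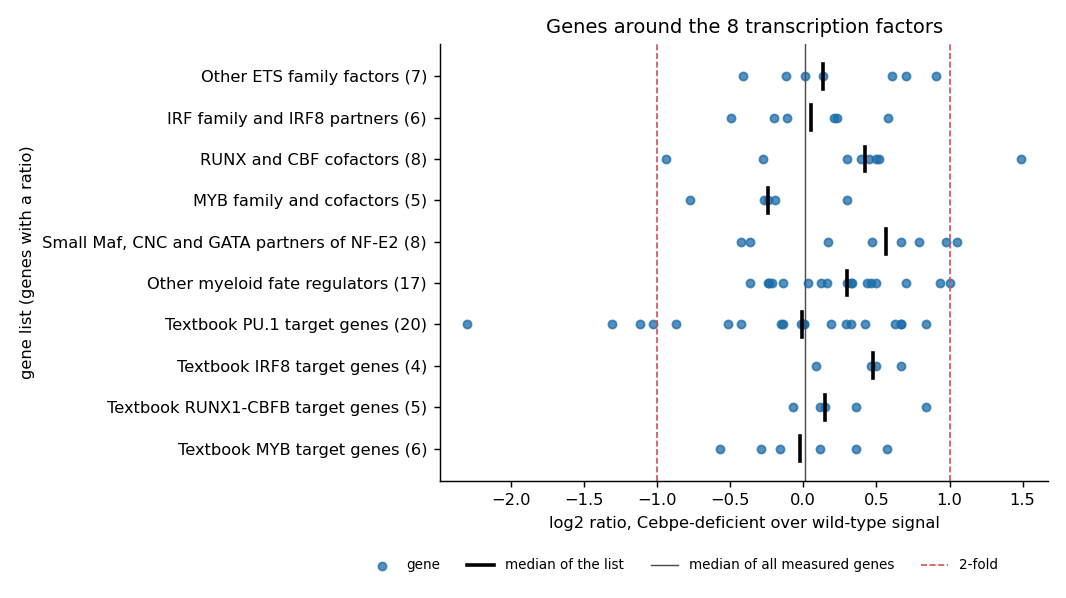
Log2 ratio of Cebpe-deficient over wild-type signal of each measured gene (points) in the 10 lists with at least 4 of them, with the list's median (black bar), the median of all 3131 measured genes (grey line) and 2-fold (dashed). Most points lie within 2-fold, and the PU.1 targets spread the widest, from -2.30 to 0.84.

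The cell types of the labels were checked by their markers. Of 10 monocyte and macrophage markers all had a ratio, 4 above 0 and 6 below, and of 10 neutrophil markers 9 were above the floor on at least 1 array. For lymphocytes, all 4 B cell markers on the arrays had a ratio, 3 below 0 and 1 above, while of 8 T and NK cell markers 6 were below the floor on both arrays and 1 had a ratio. Both arrays of a type gave similar rankings (Spearman rho 0.929 on A and 0.921 on B, over probe sets that share both libraries). Actb and Gapdh were within -0.13 to 0.14.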

How the data were processed

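Each array is given as deposited linear intensity, 1 whole number per probe set, with 20.6% to 29.3% below 0. How the authors made these values (software, background, scaling) is not given in the sources used here. Scanner files and detection calls were not used. Genotypes came from the titles, and on type B the deficient array's source description does not repeat the deficiency. The labels' text on combining cells breaks off, so whether RNA was pooled is not known here. Genes were named from the platform annotation: 7525 of 7542 singly named probe sets matched a RefSeq gene ID, and 0 symbols changed.

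Arrays of a type were brought to a common mean after leaving out the top and bottom 2%. With 1 array per genotype and type there is no test and no p-value, and the number of arrays limits the precision. The text names every probe set of the 8 genes, in each pathway list the highest and lowest ratio and each gene past 2-fold, Actb and Gapdh. A few more list genes and second probe sets are named beside these, chosen after their values were seen. Marker lists are given where they bear on a reading. The genes and lists were chosen with earlier results of these data known, and the GAS and GGAA motifs after the promoters were seen. Alternatives were 5 scalings, 2 floors, 3-fold, genes for probe sets, no suffixed probe sets, probe set means, 1 array type alone and bounds entered. The steps were tested on simulated arrays with large changes planted in bright probe sets only. Dim ratios, bounds and changes under 2-fold were not covered by that test. The tools were statsmodels 0.14.6 (loess, span 0.3), scipy 1.17.1, numpy 2.4.6, matplotlib 3.10.9, pandas 2.3.3 and Python 3.11.15.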

Additional observations from a re-analysis of the deposited data

How the results depend on the processing

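None of the 8 genes had a ratio of 2-fold or more under any of the 7 other scalings and floors. Counting at 3-fold, by gene or without suffixed probe sets could not have added one. A ratio below 2-fold is also below 3-fold, and no gene had more than 1 ratio. The only unsuffixed probe set, the plain one of Ets2, had a bound and no ratio. The count of higher bounds of 2-fold or more, 1 for Myb, was 2 with the floor at the 30th percentile, where Runx1 joined it. It was 0 with the floor at the 70th percentile, with 3-fold and without suffixed probe sets, since 9 of the 10 probe sets carry a suffix. Fli1 and Ets2 turned to 0.04 and 0.24 under bacterial-control scaling, which shifted all measured probe sets by 0.19 (median) on A and 0.33 on B, and relative to that shift both stayed below 0. Equal medians gave a shift of -0.10 on B. Bacterial-control scaling also put the ETS family median at 0.58. The SD of repeat probe sets was 0.69 with the floor at the 30th percentile, so dim readings carry more error. Readings near the floor (Fli1 and the plain Ets2 probe set) or below it (Runx1, and Myb on A) are limited by background. The size of the Myb bound on B depends on the floor, since its wild-type reading was -76. No paired analysis was possible because each array type holds 1 array per genotype.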
